A study of Mus musculus with 12 samples.

Results

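The 10 genes described here, *Klrb1c*, *Ncr1*, *Klrk1*, *Klra8*, *Gzma*, *Gzmb*, *Prf1*, *Eomes*, *Tbx21* and *Il2rb*, are commonly used to recognize natural killer (NK) cells, and they were chosen by name among the 24062 genes with FPKM values in brain and spleen. FPKM is a read density, scaled by transcript length and by the reads in the library. The tissues came from male C57BL/6 mice aged 10 weeks that either lacked the long noncoding RNA *Norad* (*Norad-/-*) or carried it (*Norad+/+*), and each group of each tissue had 3 libraries, 12 in all. *Norad* had been removed from the germline by CRISPR/Cas9 in C57BL/6J oocytes, and the sample records do not say from which of the 3 knockout lines each mouse came or whether a brain and a spleen share an animal. Each library is read here as 1 mouse, the spread of the tests is that between these libraries, and the other spleens and the CLIP libraries of the series were not analysed here.

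NK cells are innate lymphocytes that kill infected or transformed cells without prior sensitization, and the spleen holds a large population of them. Lectin-like receptors encoded side by side in the natural killer gene complex, together with *Ncr1*, set whether a target is attacked. The attack itself is carried out by perforin, which opens the target membrane, and by granzymes, proteases that enter through it. The T-box factors Eomes and T-bet establish the program, and interleukin 15, read through the receptor chain encoded by *Il2rb*, keeps the cells alive. Several of these genes are not private to NK cells, since activated CD8+ T cells also make granzymes and perforin, and memory and regulatory T cells carry the *Il2rb* chain.

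*Norad* binds PUMILIO proteins, which repress mRNAs carrying a PUMILIO response element (PRE), here TGTANATA in the DNA strand of the message. Of the 10 genes, 2 held a PRE in their longest annotated 3′ UTR, *Ncr1* with 1 and *Klrk1* with 1, and the other 8 held none. Among 11226 genes expressed in spleen with an annotated 3′ UTR, 25.7% held at least 1. Both sites are shown because they are the exact matches to TGTANATA found in these 3′ UTRs. The PRE is in capitals, 5′ to 3′ on the strand of the message. In GRCm38 the *Ncr1* site lies at chr7:4345119-4345146 on the plus strand, and the *Klrk1* site at chr6:129611147-129611174 on the minus strand.
Ncr1: tgcacacataTGTACATAtattctatgc
Klrk1: atgcatatctTGTACATAgatgagtgaa
Neither *Ncr1* nor *Klrk1* was among the genes whose genotype groups separated in spleen. Those of the 10 that did separate held no exact PRE in that 3′ UTR, but neither did most of the 11226 genes, of which 25.7% held at least 1. These counts are too few to relate PREs to genotype differences. The relaxed form of the PRE that the paper also uses was not searched, nor were other parts of the messages. Whether PUMILIO proteins bind or repress any of the 10 genes was therefore not tested.

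Promoters were read from the RefSeq table for GRCm38.p6, 250 bases before to 50 after a transcription start, and 9 of the 10 genes matched. They were searched on both strands for the core letters of 4 factor families of killer lymphocytes. The RUNX core TGTGGTT was found in 4 of the 9 (*Gzma*, *Gzmb*, *Klrk1* and *Ncr1*), against 5.27% of all 32851 RefSeq promoters. The ETS core CAGGAAG was found in 2 of 9 (*Prf1* and *Tbx21*), against 13.3% of all promoters. The STAT core TTCNNNGAA was found in *Gzmb* alone among the 9, against 8.30% of all, and the T-box core GGTGTGA in 0 of 9, against 3.98%. The 9 are counted per gene, *Ncr1* and *Klra8* with 2 promoters each, while the shares are per promoter. A match describes letters and not a bound site. The promoters of the 3 genes that were lower in *Norad-/-* spleen are shown with that of *Ncr1*, whose level overlapped between genotypes. Motifs are in capitals and the matches in them do not overlap. *Klrb1c* (chr6:128788592-128788891, minus strand) held none of the 4. *Gzmb* (chr14:56262285-56262584, minus strand) held a RUNX core and, in its last bases, a STAT core. *Gzma* (chr13:113100932-113101231, minus strand) held the RUNX core as its reverse complement, AACCACA. *Ncr1* (chr7:4337465-4337764, plus strand) held it as written.
Klrb1c: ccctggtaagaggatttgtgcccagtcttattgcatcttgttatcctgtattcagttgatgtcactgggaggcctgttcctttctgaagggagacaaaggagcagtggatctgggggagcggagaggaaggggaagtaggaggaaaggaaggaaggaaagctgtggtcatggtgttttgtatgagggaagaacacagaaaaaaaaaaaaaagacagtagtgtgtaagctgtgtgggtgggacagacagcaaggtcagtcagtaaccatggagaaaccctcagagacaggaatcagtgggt
Gzmb: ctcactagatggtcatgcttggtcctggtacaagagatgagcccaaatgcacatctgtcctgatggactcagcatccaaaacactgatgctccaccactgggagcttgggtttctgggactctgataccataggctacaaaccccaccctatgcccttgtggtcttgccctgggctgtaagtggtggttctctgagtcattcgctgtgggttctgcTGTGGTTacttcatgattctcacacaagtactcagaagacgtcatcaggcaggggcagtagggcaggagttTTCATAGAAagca
Gzma: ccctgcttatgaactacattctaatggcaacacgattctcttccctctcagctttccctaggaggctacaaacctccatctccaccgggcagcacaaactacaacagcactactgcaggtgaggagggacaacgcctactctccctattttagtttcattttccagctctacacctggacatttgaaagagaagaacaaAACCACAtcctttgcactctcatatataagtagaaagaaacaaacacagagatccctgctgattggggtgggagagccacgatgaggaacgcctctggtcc
Ncr1: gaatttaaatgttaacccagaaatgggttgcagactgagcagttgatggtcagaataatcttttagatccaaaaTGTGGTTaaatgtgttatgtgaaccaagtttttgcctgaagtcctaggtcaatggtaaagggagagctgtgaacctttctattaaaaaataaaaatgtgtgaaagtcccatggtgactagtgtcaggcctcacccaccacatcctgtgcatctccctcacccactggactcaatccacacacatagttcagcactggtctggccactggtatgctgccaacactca
The RUNX core was thus present in promoters of genes that were lower and of genes that overlapped between genotypes, and absent from that of *Klrb1c*. Whether any of these motifs bears on the genotype differences was not tested.

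Depth was estimated at 28.5 to 36.5 M reads a library. *Norad* itself had at most 0.0173 FPKM in *Norad-/-* libraries of either tissue, against at least 42.9 FPKM in *Norad+/+* libraries. *Norad+/+* spleen replicate 3 stood apart through pancreas and liver transcripts, with 253 FPKM summed over 5 marker genes against at most 9.51 in the other 5 spleens. Summed markers of red cell precursors were also uneven, at 3494, 3262 and 15210 FPKM in the 3 *Norad-/-* spleens, against 9440, 25392 and 22333 FPKM in the 3 *Norad+/+* spleens. Values are therefore given with and without these libraries where a result rests on them.

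In spleen, *Klrb1c*, *Gzmb* and *Gzma* were lower and *Il2rb* higher in every *Norad-/-* library than in every *Norad+/+* library, while the other 6 genes overlapped between genotypes. With limma on log2(FPKM + 0.1), adjusted by Benjamini-Hochberg over 12397 genes, 0 of the 10 passed an adjusted p of 0.05, as 0.0323% of all genes did. At an unadjusted p under 0.05 the count was 3 lower and 1 higher of 10, where 21% of all genes lay (13.6% lower and 7.42% higher). Groups that do not overlap, found at 4 of the 10, occurred at 26.5% of all genes (14.9% lower and 11.6% higher). Read against these shares, the counts are no result about the 10 genes as a group. The median log2 fold change of the 10, *Norad-/-* over *Norad+/+*, was -0.10, against -0.02 over all genes tested, with 6 below 0 and 4 above, where 53.8% of all genes lay below 0. With TPM in place of FPKM the median over all genes was 0.10, and *Ncr1* and *Klra8* changed sign, to 0.011 and 0.023. In bulk tissue, fewer cells of a type and less RNA per cell cannot be told apart.

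**Figure D1:**
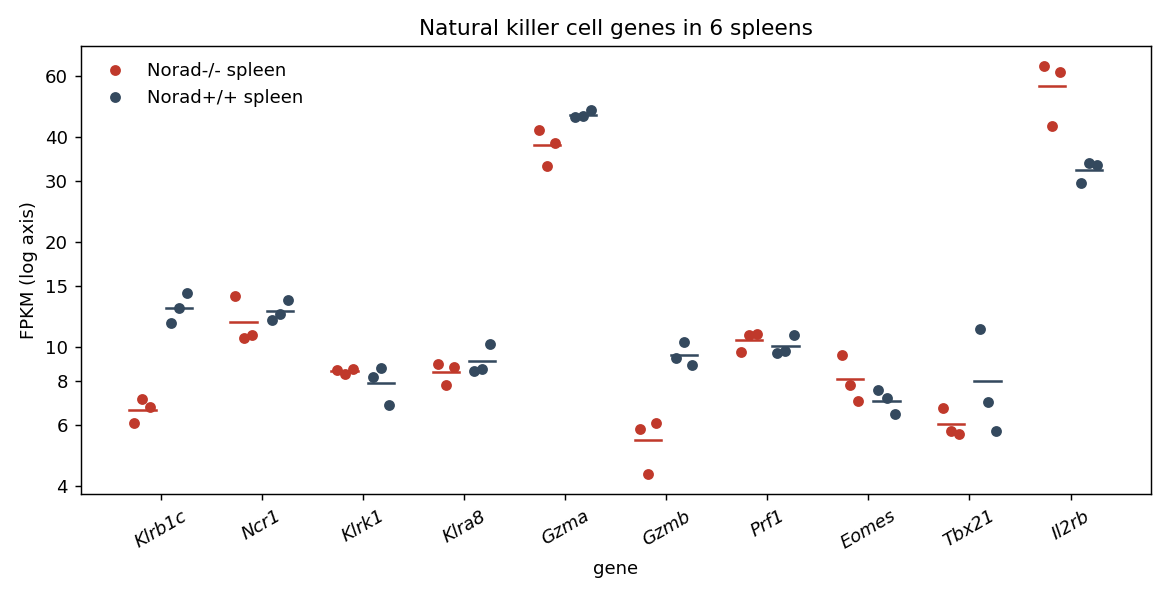
FPKM on a log axis (vertical) of the 10 genes (horizontal) in spleen. Each point is 1 library, 3 Norad-/- (left of each pair) and 3 Norad+/+ (right), and short lines are group means. The groups separate at Klrb1c, Gzma, Gzmb and Il2rb and overlap at the other 6 genes.

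Among the receptors, *Klrb1c*, which encodes the NK1.1 antigen by which NK cells of C57BL/6 mice are usually stained, stood farthest apart. It had 6.05, 7.12 and 6.73 FPKM in *Norad-/-* spleens, against 11.7, 13.0 and 14.3 FPKM in *Norad+/+* spleens. The highest *Norad-/-* library lay well below the lowest *Norad+/+* library, and the spread within each group was small (SD 0.541 around a mean of 6.63 FPKM, against SD 1.28 around 13.0 FPKM, n = 3 each). The log2 fold change was -0.96 (standard error 0.11, 95% interval -1.22 to -0.69), or 0.515-fold, with an adjusted p of 0.092 by limma, which placed it at rank 12 of all genes by p. Without *Norad+/+* replicate 3 it was -0.89 (adjusted p = 0.191, limma), and with any 1 library left out it ran from -1.03 to -0.89. *Klrb1c* spans chr6:128778485-128789215 on the minus strand, and an annotated protein-coding model, *Gm44511*, overlaps it on the same strand, so their reads can be hard to assign.

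*Ncr1*, which encodes the activating receptor NKp46, had 14.0, 10.7 and 10.9 FPKM in *Norad-/-* spleens, against 11.98, 12.5 and 13.6 FPKM in *Norad+/+* spleens. The highest and the lowest of the 6 values were both *Norad-/-*, and the log2 fold change was -0.11 (95% interval -0.42 to 0.20, adjusted p = 0.651, limma). With any 1 library left out it ran from -0.24 (without *Norad-/-* replicate 1) to -0.039 (without *Norad-/-* replicate 2), and without *Norad+/+* replicate 3 it was -0.057. Since *Klrb1c* and *Ncr1* both mark the NK population, their ratio sets one against the other within a library. It was 0.432, 0.669 and 0.619 in *Norad-/-* spleens, against 0.978, 1.04 and 1.05 in *Norad+/+* spleens, without overlap. This ratio restates the lower *Klrb1c* against a gene with a smaller difference.

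*Klrk1*, which encodes NKG2D, the receptor for stress-induced ligands, had 8.63, 8.39 and 8.67 FPKM in *Norad-/-* spleens, against 8.24, 8.72 and 6.82 FPKM in *Norad+/+* spleens. The 3 *Norad-/-* values fell within the *Norad+/+* range, and the log2 fold change was 0.12 (95% interval -0.15 to 0.38, adjusted p = 0.566, limma), and 0.014 without *Norad+/+* replicate 3. *Klra8*, which encodes Ly49H, the receptor that recognizes a cytomegalovirus protein in C57BL/6 mice, had 8.93, 7.80 and 8.80 FPKM in *Norad-/-* spleens, against 8.53, 8.65 and 10.2 FPKM in *Norad+/+* spleens. These groups overlapped too, with a log2 fold change of -0.10 (95% interval -0.35 to 0.16, adjusted p = 0.627, limma), -0.016 without *Norad+/+* replicate 3 and -0.037 without *Norad-/-* replicate 2. The *Klrk1* to *Klra8* ratio was 0.966, 1.07 and 0.985 in *Norad-/-* spleens, against 0.966, 1.01 and 0.669 in *Norad+/+* spleens, and overlapped. The intervals of *Ncr1*, *Klrk1* and *Klra8* each leave out a change as large as that of *Klrb1c*, though missing the threshold is no evidence of equal levels.

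The neighbours of *Klrb1c* did not share the size of its difference. Of 25 *Klr* genes in the complex on chromosome 6, 23 were tested, and their median log2 fold change was -0.12, with 14 below 0 and 9 above. The 2 with a size beyond 0.5 were *Klrb1c* and *Klra2* (-0.68, adjusted p = 0.21, limma), where 13.8% of all genes tested were that far from 0. The nearest relatives of *Klrb1c* lay on both sides, *Klrb1b*, an inhibitory receptor, at 0.28, *Klrb1a* at -0.15 and *Klrb1f* at -0.14. Besides *Klrb1c* and *Klra2*, only *Klra9* among the 23 had an unadjusted p under 0.05 (-0.41). These genes were named after their values were seen. *Klr* genes are close copies, so the split of reads between them is uncertain, above all within the *Klra* family.

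**Figure D2:**
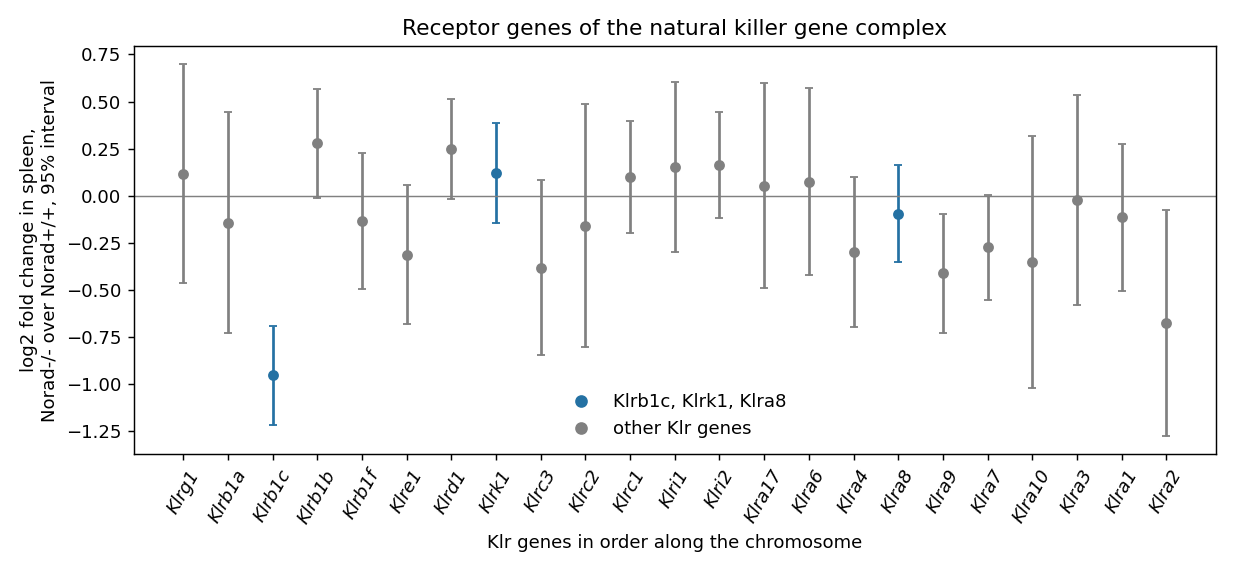
Log2 fold change in spleen, Norad-/- over Norad+/+ (vertical), of 23 Klr genes in their order along the chromosome (horizontal), with 95% intervals from limma (3 libraries a group). Klrb1c, at -0.96, lies below its neighbours, while Klrk1 (0.12) and Klra8 (-0.10) lie near 0.

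Of the killing genes, *Gzmb*, which encodes granzyme B, the protease that starts caspase activation in the target, had 5.83, 4.33 and 6.07 FPKM in *Norad-/-* spleens, against 9.32, 10.3 and 8.87 FPKM in *Norad+/+* spleens. Every *Norad-/-* value was below every *Norad+/+* value. The log2 fold change was -0.81 (standard error 0.15, 95% interval -1.17 to -0.46, adjusted p = 0.141, limma), -0.86 without *Norad+/+* replicate 3 and -0.90 without *Norad-/-* replicate 3.

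*Gzma*, which encodes granzyme A, the most abundant of these transcripts in *Norad+/+* spleens, had 42.0, 33.1 and 38.6 FPKM in *Norad-/-* spleens, against 45.6, 45.9 and 47.7 FPKM in *Norad+/+* spleens. The groups did not overlap, but the highest *Norad-/-* library came close to the lowest *Norad+/+* one. The log2 fold change was -0.30 (standard error 0.10, 95% interval -0.55 to -0.05, adjusted p = 0.198, limma). It was -0.28 without *Norad+/+* replicate 3, -0.31 without *Norad-/-* replicate 3 and -0.20 without *Norad-/-* replicate 2.

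*Prf1*, which encodes perforin, had 9.71, 10.8 and 10.9 FPKM in *Norad-/-* spleens, against 9.66, 9.73 and 10.8 FPKM in *Norad+/+* spleens. The groups lay on top of each other, with a log2 fold change of 0.06 (95% interval -0.16 to 0.28, adjusted p = 0.745, limma) that ran from 0.027 to 0.11 with any 1 library left out. The *Gzmb* to *Prf1* ratio was 0.6001, 0.3999 and 0.555 in *Norad-/-* spleens, against 0.965, 1.06 and 0.818 in *Norad+/+* spleens. The *Gzma* to *Gzmb* ratio was 7.21, 7.64 and 6.36 in *Norad-/-* spleens, against 4.90, 4.44 and 5.38 in *Norad+/+* spleens. Both ratios separated the genotypes, and they restate the lower *Gzmb* against genes with smaller differences.

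Of the T-box factors, *Eomes*, which encodes the factor needed for mature conventional NK cells, had 9.51, 7.82 and 7.02 FPKM in *Norad-/-* spleens, against 7.55, 7.14 and 6.43 FPKM in *Norad+/+* spleens. The groups overlapped, with a log2 fold change of 0.20 (95% interval -0.13 to 0.52, adjusted p = 0.434, limma). It was 0.13 without *Norad+/+* replicate 3, 0.077 without *Norad-/-* replicate 1 and 0.29 without *Norad-/-* replicate 3. An antisense model, *Gm33460*, overlaps *Eomes*. The library kit marks strand, but whether the FPKM step used it is not given in the sources used here.

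*Tbx21*, which encodes T-bet, had 6.72, 5.74 and 5.64 FPKM in *Norad-/-* spleens, against 11.3, 6.96 and 5.77 FPKM in *Norad+/+* spleens. *Norad+/+* replicate 1 alone was high. The log2 fold change of -0.35 (95% interval -0.95 to 0.25, adjusted p = 0.448, limma) was -0.074 without that library and -0.55 without *Norad+/+* replicate 3. The ratio of *Eomes* to *Tbx21* was 1.41, 1.36 and 1.24 in *Norad-/-* spleens, against 0.667, 1.03 and 1.11 in *Norad+/+* spleens. It did not overlap between genotypes although neither gene separated them by itself, and the lowest ratio was again that of *Norad+/+* replicate 1. The nearest values, 1.24 and 1.11, lay close together. This ratio was among several formed, and how often ratios of other gene pairs separate was not examined.

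*Il2rb* lay on the other side. It had 63.8, 43.0 and 61.4 FPKM in *Norad-/-* spleens, against 29.5, 33.7 and 33.2 FPKM in *Norad+/+* spleens. All *Norad-/-* values were higher, and *Norad-/-* replicate 2 was nearest to *Norad+/+*. The log2 fold change was 0.78 (standard error 0.16, 95% interval 0.38 to 1.18, adjusted p = 0.151, limma), 0.81 without *Norad+/+* replicate 3 and 0.71 without *Norad-/-* replicate 3. Relative to *Ncr1* it stood at 4.56, 4.04 and 5.65 in *Norad-/-* spleens, against 2.46, 2.70 and 2.43 in *Norad+/+* spleens. Per 1000 FPKM summed over T cell markers, *Il2rb* stood at 108, 69.3 and 119 in *Norad-/-* spleens, against 72.1, 91.8 and 92.9 in *Norad+/+* spleens. Those values overlapped between genotypes. By the same measure *Ncr1* stood at 23.6, 17.2 and 21.1 in *Norad-/-* spleens, against 29.3, 34.0 and 38.2 in *Norad+/+* spleens. *Gzma* and *Klrb1c* were likewise lower in every *Norad-/-* spleen. The T cell sum was itself higher in *Norad-/-* spleens, so it lowers each such value there. The part of T cells in the *Il2rb* level was not tested.

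**Figure D3:**
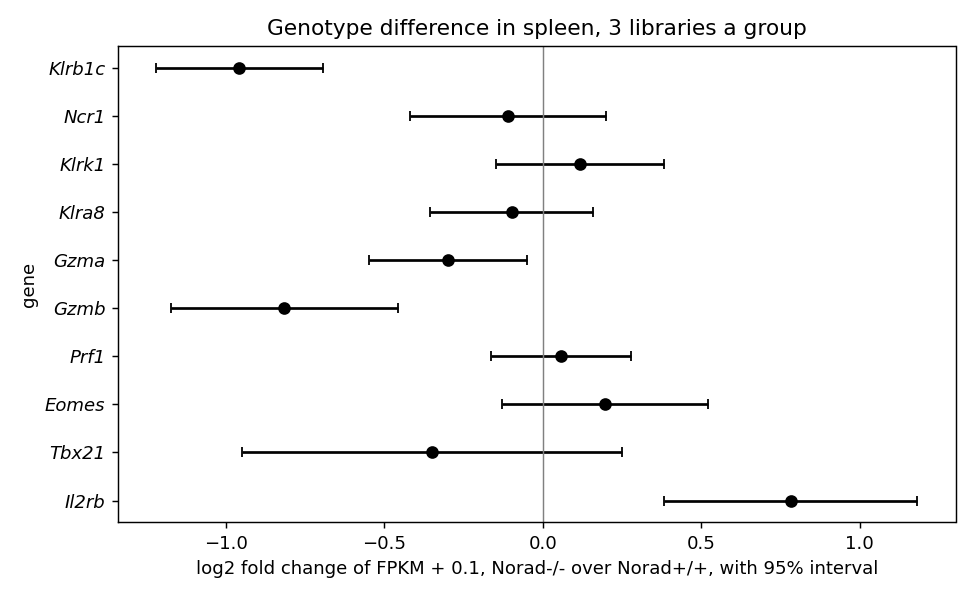
Log2 fold change of FPKM + 0.1 in spleen, Norad-/- over Norad+/+ (horizontal), for each of the 10 genes (vertical). Points are limma estimates from 3 libraries a group and bars are 95% intervals, unadjusted for the number of genes. The intervals of Klrb1c, Gzmb and Gzma lie below 0, that of Il2rb above 0, and the other 6 include 0.

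The order of the levels differed between genotypes. In *Norad-/-* spleens *Il2rb* was first (56.1 ± 11.4 FPKM, SD, n = 3), followed by *Gzma* (37.9 ± 4.49), and both stood clear of the rest. *Ncr1* (11.8 ± 1.88) and *Prf1* (10.5 ± 0.683) overlapped, as did each neighbouring pair along *Klrk1*, *Klra8*, *Eomes*, *Klrb1c*, *Tbx21* and *Gzmb*, the last at 5.41 ± 0.939 FPKM. In *Norad+/+* spleens *Gzma* was first (46.4 ± 1.15), *Il2rb* next (32.1 ± 2.31), and *Klrb1c* and *Ncr1* overlapped in the next places. *Prf1*, *Gzmb*, *Klra8*, *Tbx21*, *Klrk1* and *Eomes* followed, each overlapping its neighbour, with *Eomes* last at 7.04 ± 0.568 FPKM. *Klrb1c* stood at place 8 in *Norad-/-* spleens against place 3 in *Norad+/+* spleens, and *Gzmb* at place 10 against place 6. FPKM are per length, so these places compare read densities between genes. Within the groups, *Norad-/-* replicate 2 was the lowest of its 3 libraries at 6 of the 10 genes and *Norad-/-* replicate 1 the highest at 6, and *Norad+/+* replicate 1 was the lowest at 6.

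The rest of the NK program was read from lists of genes named for their role, none of which had a member past the adjusted threshold in spleen (limma). In each list the 4 genes of highest mean level, or fewer, were taken as examples, and some genes with an unadjusted p under 0.05 were added because of their values. Of 24 other receptors tested, 12 lay above 0 and 12 below. *Ly6c2*, a surface marker of lymphocytes and monocytes, averaged 109 FPKM in *Norad-/-* spleens and 108 FPKM in *Norad+/+* spleens. *Klrd1*, which encodes CD94, averaged 25.3 FPKM in *Norad-/-* spleens and 21.3 FPKM in *Norad+/+* spleens, a log2 fold change of 0.25. At an unadjusted p under 0.05, 3 of the 24 were higher (7.42% of all genes), *Cd160* (0.66), *Cd96* (0.54) and *Slamf7* (0.46), all of which T cells can also carry, and 1 was lower, *Klra9* (13.6% of all genes).

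Of 12 other granule genes tested, 2 were higher and 2 lower at that level, against 7.42% and 13.6% of all genes. The most abundant, *Srgn*, which encodes the granule proteoglycan serglycin, had a log2 fold change of 0.02. *Stx11*, which encodes a syntaxin needed for granule release, averaged 11.0 FPKM in *Norad-/-* spleens and 21.0 FPKM in *Norad+/+* spleens (log2 fold change -0.94, adjusted p = 0.138, limma). *Ctsc*, which encodes the protease that activates progranzymes, had a log2 fold change of -0.22. The higher ones were *Ctsw* (0.40), a cathepsin of killer cells, and *Cst7* (0.38), which encodes a cystatin that inhibits cathepsins.

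Of 14 other transcription factors tested, 4 were higher, *Gata3* (0.70), *Tcf7* (0.42), *Irf2* (0.36) and *Runx3* (0.31), and 2 lower, against 7.42% and 13.6% of all genes. *Gata3* and *Tcf7* are also factors of T cells, and *Runx3* encodes a protein that reads the RUNX core. The lower ones were *Nfil3* (-0.40), needed for NK cell development, and *Zeb2* (-0.33), which acts in their terminal maturation. The abundant *Ets1* (0.22), *Id2* (0.19) and *Ikzf3* (-0.19) had a p above that level.

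Of 11 genes of the interleukin 15 axis, 2 were higher and 0 lower (7.42% and 13.6% of all genes), and both encode receptor chains. The partner of the *Il2rb* chain, *Il2rg*, averaged 351 FPKM in *Norad-/-* spleens and 279 FPKM in *Norad+/+* spleens, a log2 fold change of 0.33. *Il2ra*, which completes the high-affinity interleukin 2 receptor, had 0.86. The kinases downstream lay near 0 (*Jak1* 0.10, *Jak3* 0.0028).

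Of 15 adaptors and proximal kinases, 7 were higher and 4 lower, against 7.42% and 13.6% of all genes. Among the higher ones were *Zap70* (1.24), *Lat* (0.76), *Cd247* (0.71) and *Lck* (0.57), which carry the signal of the T cell receptor, *Zap70* and *Cd247* also serving NK cells. The 4 lower ones were *Fcgr3* (-0.74), which encodes the Fc receptor by which NK cells and myeloid cells bind antibody, *Sh2d1b1* (-0.49), which encodes the adaptor EAT-2, and the adaptors *Tyrobp* (-0.37) and *Fcer1g* (-0.27). Of 8 effector cytokines and death ligands, the chemokine *Ccl5* was higher (0.33) and 0 were lower, against the same shares of all genes. Among homing genes, *Cd27* (0.83) and *Cxcr4* (0.62) were higher, and *Itgam* (-0.77) and *Ccr2* (-0.63), abundant on myeloid cells, were lower. Among 8 NKG2D ligands measured, 1 reached 1 FPKM, *Ulbp1*, with 1.98, 11.2 and 2.07 FPKM in *Norad-/-* spleens, against 1.65, 2.29 and 1.395 FPKM in *Norad+/+* spleens. *Norad-/-* replicate 2 alone was high there, and the other libraries overlapped.

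Markers of other cells differed between these spleens as well, and their part in the values of the 10 genes was not tested unless stated. All 8 T cell markers tested were higher at an unadjusted p under 0.05 (7.42% of all genes), with a median of 0.60. Their summed level was 514 to 621 FPKM in *Norad-/-* spleens, against 357 to 408 FPKM in *Norad+/+* spleens. Above 0 too lay 6 of 6 B cell markers (median 0.15), 5 of 6 of dendritic cells (0.33) and 8 of 10 pan-leukocyte genes (0.19). Dendritic cell markers summed to 86.6 to 102 FPKM in *Norad-/-* spleens, against 64.5 to 77.8 FPKM in *Norad+/+* spleens. The pan-leukocyte genes summed to 2857 to 3215 FPKM in *Norad-/-* spleens, against 2505 to 2718 FPKM in *Norad+/+* spleens.

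On the lower side stood all 10 markers of red cell precursors (median -2.42), 7 of 7 of neutrophils (-1.97), 7 of 7 of macrophages (-0.48) and 5 of 5 of dividing cells (-1.33). Over all genes tested in spleen, 53.8% lay below 0. Dividing cell markers summed to 59.7 to 131 FPKM in *Norad-/-* spleens, against 133 to 311 FPKM in *Norad+/+* spleens. Macrophage markers summed to 640 to 843 FPKM in *Norad-/-* spleens, against 902 to 1120 FPKM in *Norad+/+* spleens. Neutrophil markers overlapped, at 166 to 1487 FPKM in *Norad-/-* spleens, against 855 to 2421 FPKM in *Norad+/+* spleens. None of these lists had a member past the adjusted threshold (limma). With the red cell precursor level as a covariate the log2 fold change was -0.88 for *Klrb1c*, -0.61 for *Gzmb*, -0.24 for *Gzma* and 1.01 for *Il2rb*. The adjusted p in that fit was 0.630, 0.735, 0.879 and 0.689, in the same order (limma). All 10 markers behind the covariate had a log2 fold change below 0, so that fit cannot cleanly separate genotype from red cell content.

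**Figure D4:**
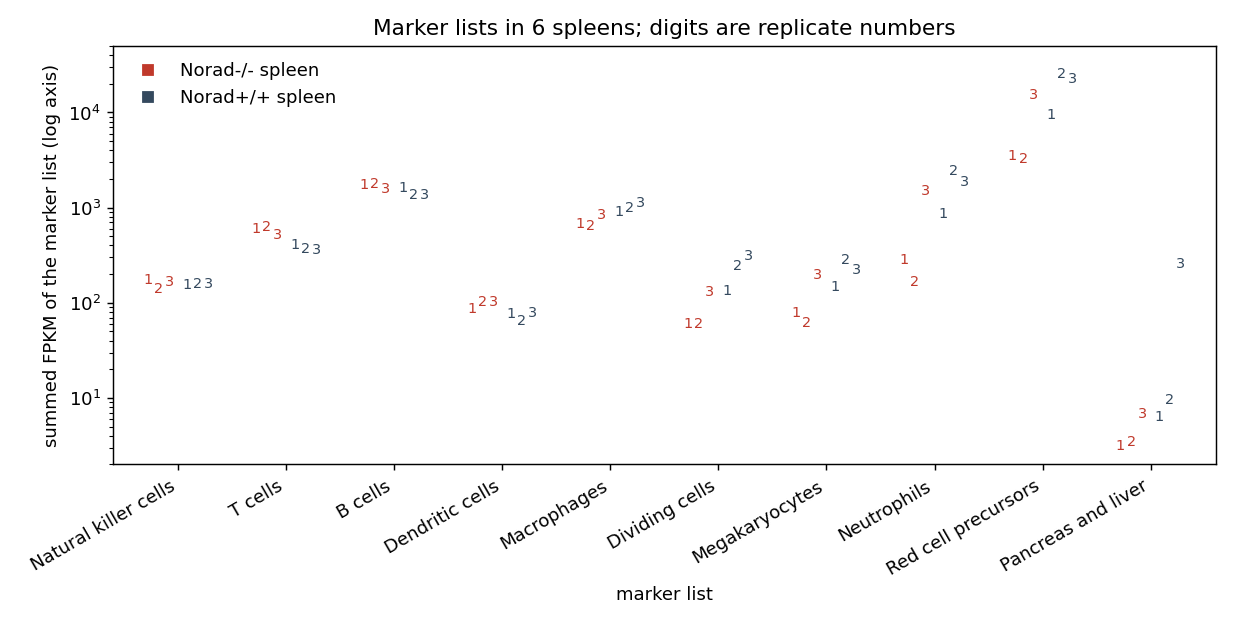
Summed FPKM of marker lists on a log axis (vertical) in each spleen library, by list (horizontal), Norad-/- left and Norad+/+ right of each pair; digits are replicate numbers. The natural killer list, dominated by Gzma and Il2rb, overlaps between genotypes, the T cell list is higher in Norad-/- and the macrophage list lower.

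Summed over the 10 genes the level was 175, 139 and 165 FPKM in *Norad-/-* spleens, against 153, 157 and 158 FPKM in *Norad+/+* spleens. The sums overlapped between genotypes, with *Il2rb* and *Gzma*, the most abundant, on opposite sides. The genes whose pattern over the 6 spleen libraries was most like the mean of the 10 were *Snora15*, *Sppl2a*, *Gm4951*, *Osbpl8*, *Mir7078*, *Ythdc2*, *Cep135*, *Mdh1*, *Btf3l4* and *Pyurf*. Pearson's r ran from 0.958 to 0.988 over 6 libraries, which share tissue and preparation, and is a description of a mean to which the 10 genes contribute in both directions.

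In brain, which holds few lymphocytes, 1 of the 10 genes reached a mean of 1 FPKM. *Eomes*, which is also known in neuronal progenitors and in projection neurons of the olfactory bulb, had 4.17, 6.08 and 7.69 FPKM in *Norad-/-* brains, against 4.90, 7.25 and 8.90 FPKM in *Norad+/+* brains. The groups overlapped widely, with a log2 fold change of -0.23 (95% interval -0.93 to 0.48, adjusted p = 0.821 over 13051 genes, limma). Without *Norad-/-* brain replicate 1 it was 0.0037. In this tissue 0.0153% of all genes passed the adjusted threshold. The genotype difference of *Eomes* in spleen minus that in brain was 0.42 (95% interval -0.34 to 1.19, adjusted p = 0.606 over 10481 genes, limma).

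*Tbx21*, likewise known in the olfactory bulb, had 0.597, 0.716 and 0.950 FPKM in *Norad-/-* brains, against 0.468, 0.725 and 0.730 FPKM in *Norad+/+* brains. The groups overlapped, and replicate 1 was the lowest of each group for *Tbx21* and for *Eomes* alike. *Il2rb* had 0.118, 0.114 and 0.132 FPKM in *Norad-/-* brains, against 0.0525, 0.0705 and 0.0651 FPKM in *Norad+/+* brains. These values, about 7.75 to 18.6 reads a library, did not overlap, as was so at 17.1% of the genes tested in brain (10.6% higher), and *Il2rb* was below the level at which genes were tested. Fitted with all genes and no such minimum, its log2 fold change was 0.44 (adjusted p = 0.612, limma). Summed CD3 chains (*Cd3d*, *Cd3e* and *Cd3g*) stood at 0.324, 0.0577 and 0.144 FPKM in the same *Norad-/-* brains, against 0.0879, 0.445 and 0.168 FPKM in *Norad+/+* brains, and overlapped.

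The other 7 genes, *Klrb1c*, *Ncr1*, *Klrk1*, *Klra8*, *Gzma*, *Gzmb* and *Prf1*, were listed at 0 in 1 to 3 of the 6 brains and nowhere above 0.123 FPKM (*Gzma*), at most about 5.83 reads (*Klrk1*). Differences between genotypes were not detectable at this depth for these 7. Averaged over the 6 libraries of each tissue, *Il2rb* was 44.1 FPKM in spleen and 0.092 FPKM in brain, *Tbx21* 7.03 and 0.698 FPKM, and *Eomes* 7.58 and 6.50 FPKM. The tissues come from separate tables, so these levels are set side by side and not tested.

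**Figure D5:**
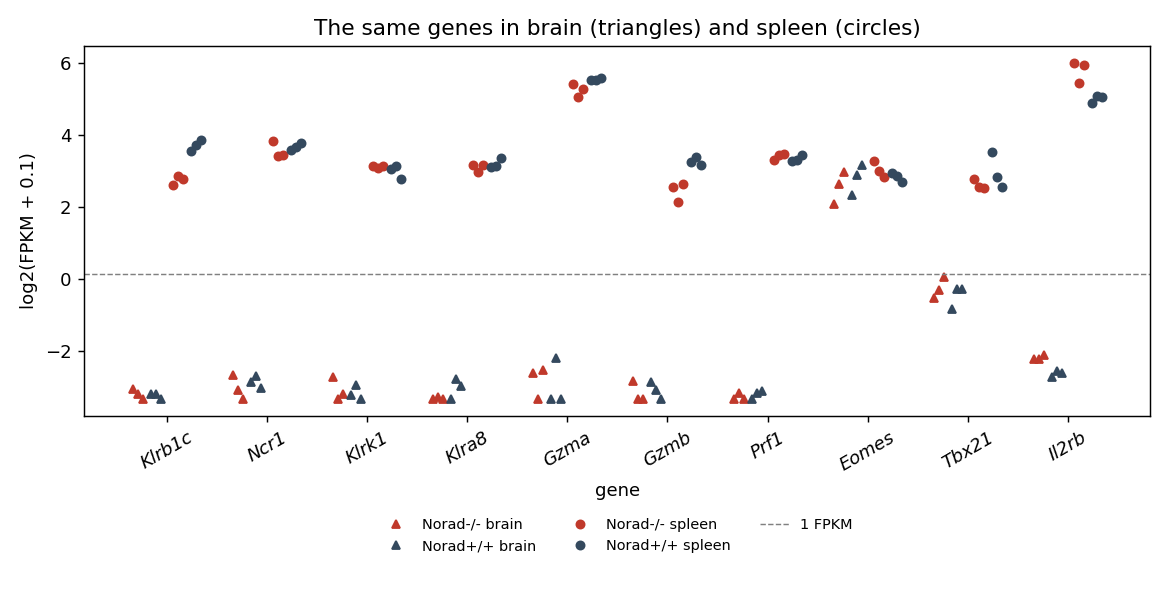
Log2(FPKM + 0.1) (vertical) of the 10 genes (horizontal) in brain (triangles) and spleen (circles), Norad-/- and Norad+/+ by colour, 1 point a library; the dashed line is 1 FPKM. Eomes is at a like level in both tissues, Tbx21 lies below 1 FPKM in brain, and the other 8 genes are near the floor there.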

How the data were processed

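RNA was isolated from brain and spleen, and poly(A)-selected stranded libraries were read as 75-base single reads. The deposited values are FPKM per gene, made by the authors and normalized to transcript length and library reads. Per the processing notes of the submitters, reads were aligned to GRCm38 with TopHat2 2.0.12 and FPKM computed with StringTie 1.2.2, while featureCounts 1.4.6 and edgeR 3.8.6 served their own comparison. The gene annotation behind the FPKM is not given in the sources used here. FPKM are relative values, so a large change of abundant transcripts moves all others. Depth was estimated from the FPKM of 1 read, and its steps were too irregular to recover whole reads. All value columns belonged to a sample (0 did not).

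Values were taken as log2(FPKM + 0.1). Testing was limited to genes whose average in a tissue was 1 FPKM or more, with limma 3.58.1 in R 4.3.3 (variance trend, two-sided, Benjamini-Hochberg within a tissue, threshold 0.05), each tissue apart. The pseudocount understates changes of low genes. The steps were tested on simulated data. PREs were searched in the longest 3′ UTR of GENCODE M21 transcripts. Alternatives were pseudocounts of 0.01 and 1, a minimum of 5 FPKM or none, TPM, quantile normalization, variance models, a scaling to pan-leukocyte genes, a red cell precursor covariate, a block by replicate number, and each library left out. The members and lists were chosen with earlier results of these data known. Of each other NK list up to 4 genes of highest mean were named, and of the lists of other cells the summed level. Software was Python 3.11.15 with numpy 2.4.6, pandas 2.3.3 and matplotlib 3.10.9. A withheld item is not reported here.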

Additional observations from a re-analysis of the deposited data

How the results depend on the processing

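Over 18 alternatives in spleen, *Klrb1c* (-1.55 to -0.84), *Gzmb* (-1.40 to -0.61), *Gzma* (-0.90 to -0.18), *Tbx21* (-0.94 to -0.074) and *Il2rb* (0.19 to 1.01) kept their direction, and 0 members passed the adjusted threshold except under a scaling of each library to T cell genes. That scaling, chosen after seeing the data, put the median over all genes at -0.61, against -0.02 in FPKM, and called 9821 genes, 9 of the 10 members among them, with that shift contained in each value. Under it *Prf1* (-0.54), *Klrk1* (-0.47) and *Eomes* (-0.40) turned. TPM, with a median over all genes of 0.10, turned *Ncr1* (0.011) and *Klra8* (0.023), and with it 57.2% of the genes at an unadjusted p under 0.05 were higher, against 35.4% in FPKM. Pan-leukocyte scaling (median -0.17) turned *Prf1* (-0.088) and *Klrk1* (-0.028), and the red cell precursor covariate turned *Klra8* (0.0084) and *Eomes* (-0.029). The count of all genes past the threshold in spleen, 4, was 2 with no minimum, TPM, quantile normalization or pan-leukocyte scaling and 1 with the covariate. With 1 library left out it ran from 1 to 93 in spleen (93 without *Norad-/-* replicate 3, 20 without *Norad+/+* replicate 1 and 15 without *Norad+/+* replicate 3) and from 1 to 15 in brain, where it was 2 (15 without *Norad+/+* replicate 3, 9 without *Norad+/+* replicate 2). With 1 library left out *Eomes* in brain ran from -0.46 to 0.0037, turning without *Norad-/-* replicate 1. The labels do not say whether replicate numbers pair the samples. Correlations of deviations between libraries of the same number were 0.34, -0.15 and 0.29 in spleen and 0.061, 0.068 and 0.11 in brain. In brain every library correlated best with its own number, a hint from the data and not the design. A block by replicate number called 1 gene in spleen and 1 in brain and 0 members, with *Eomes* in brain at an adjusted p of 0.701 (limma). The cause of these moves was not tested.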
